A study of Mus musculus with 8 samples.

Results

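The regions described here were places in wild-type mouse stromal cells where the chromatin regulator ASXL1 lay on chromatin that carried H3K4me2 but neither H3K4me3 nor H3K27me3. An island, as used here, is a stretch of chromosome in which the submitters' peak caller found enriched chromatin immunoprecipitation reads. The members were chosen by measured values, the island calls of the wild-type ASXL1, H3K4me2, H3K4me3 and H3K27me3 libraries. The rule took autosomal ASXL1 islands narrower than 20000 bp that shared at least 1 bp with a wild-type H3K4me2 island and none with a wild-type H3K4me3 or H3K27me3 island. It took 3851 islands, out of 17065 on the autosomes and 17419 in all, and they covered 21.3 Mb. Their marks in wild type were therefore set by the rule and are given as a description. The measures that the rule did not use were the islands of the 3 marks in Asxl1-/- cells, the positions of the islands and the genes near them.

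Cultured mesenchymal stem and progenitor cells (MSPCs), the stromal cells that give rise to bone, fat and cartilage and support blood stem cells, were used. All came from bone marrow of mice on a C57BL/6 background and were between passages 5 and 10. The groups were Asxl1-/- cells, which gave 1 library each of H3K4me2, H3K4me3 and H3K27me3, and wild-type cells, which gave the same 3 libraries and 1 of ASXL1. The labels state neither how Asxl1 was inactivated, whether a culture was 1 clone, nor how many animals gave cells. With 1 library of each kind there was no spread between replicates, so no difference between genotypes was tested, and the intervals below are exact Clopper-Pearson 95% intervals that cover counting error over islands alone. The deposited lists hold positions without read counts, so library depth is unknown, and an island missing from a list may be a weak signal rather than none.

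As background, H3K4me3 sits at active or poised gene starts, whereas H3K4me2 without H3K4me3 is found at many enhancers, the distant control elements of genes. H3K27me3 is laid down by Polycomb repressive complex 2 on silent genes. ASXL1 forms a histone H2A deubiquitinase with BAP1 and has also been linked to Polycomb repressive complex 2.

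The cell type was checked on H3K4me3 within 1000 bp of marker genes. H3K4me3 was present at 11 of 12 stromal markers in Asxl1-/- cells and at 12 of 12 in wild-type cells. Among markers of other cell types it was present in both genotypes at 1 of 8 haematopoietic genes (Spi1 in wild type), at 1 of 6 endothelial genes (Kdr in wild type) and at 0 of 4 skeletal muscle genes. It was present at 1 of 5 epithelial genes in Asxl1-/- cells and at 3 of 5 in wild-type cells.

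Sequence was at hand for members that hold a RefSeq promoter or microRNA. Each promoter below is a RefSeq window of GRCm38.p6, from 250 bases before to 50 bases after the gene start, 5′ to 3′ on the gene's strand. Windows of 7 protein-coding genes lay wholly inside a member and wholly under H3K4me3 or H3K27me3 in Asxl1-/- cells. They were Gpr39 and Ly6c1 under H3K4me3 and Il33, Aox4, Dnmt3l, Hmga1b and Slc26a9 under H3K27me3. The windows below, picked after their values were seen, are shown as examples of H3K27me3 without H3K4me2, H3K27me3 with H3K4me2, and H3K4me3. Capitals mark TGANTCA (the AP-1 motif), GGAATG (TEAD), TGTGGT (RUNX) and CACGTG (an E-box), read on both strands, and none of these motifs contains another. The Il33 window, plus strand, at chr19:29924863-29925162, belongs to the alarmin cytokine interleukin 33.
Il33: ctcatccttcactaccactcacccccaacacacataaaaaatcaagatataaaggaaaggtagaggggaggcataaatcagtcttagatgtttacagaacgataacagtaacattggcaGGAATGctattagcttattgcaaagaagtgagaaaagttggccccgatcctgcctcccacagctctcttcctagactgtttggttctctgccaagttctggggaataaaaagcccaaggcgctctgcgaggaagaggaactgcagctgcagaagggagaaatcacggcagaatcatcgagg
The Aox4 window, plus strand, at chr1:58210147-58210446, belongs to an aldehyde oxidase.
Aox4: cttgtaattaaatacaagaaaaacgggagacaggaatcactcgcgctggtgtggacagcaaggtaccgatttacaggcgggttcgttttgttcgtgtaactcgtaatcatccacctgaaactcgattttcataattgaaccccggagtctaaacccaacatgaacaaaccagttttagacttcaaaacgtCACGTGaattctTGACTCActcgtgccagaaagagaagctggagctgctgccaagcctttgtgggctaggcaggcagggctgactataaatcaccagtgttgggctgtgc
The Gpr39 window, plus strand, at chr1:125676746-125677045, belongs to a zinc-sensing receptor.
Gpr39: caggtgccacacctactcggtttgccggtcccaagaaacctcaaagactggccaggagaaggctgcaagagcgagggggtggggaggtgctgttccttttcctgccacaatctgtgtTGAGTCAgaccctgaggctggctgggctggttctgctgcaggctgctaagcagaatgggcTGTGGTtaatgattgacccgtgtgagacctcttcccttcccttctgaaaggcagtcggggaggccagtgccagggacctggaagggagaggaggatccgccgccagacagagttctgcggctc

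These members differed in which mark they had in Asxl1-/- cells. The Il33 member, an ASXL1 island of 5.4 kb, had H3K4me2 of 0 kb in Asxl1-/- cells against an island of 4.0 kb in wild-type cells. It had an H3K27me3 island of 16 kb in Asxl1-/- cells against 0 kb in wild-type cells. At Aox4 both marks were present in Asxl1-/- cells, where the H3K4me2 island measured 1.0 kb, against 3.0 kb in wild-type cells, and the H3K27me3 island 16.4 kb, against 0 kb in wild-type cells. The Gpr39 member had an H3K4me3 island of 4.6 kb in Asxl1-/- cells against 0 kb in wild-type cells, and H3K4me2 islands of 6.2 kb in Asxl1-/- cells and 5.8 kb in wild-type cells.

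Members also held 11 microRNA hairpins, in 10 islands, of which 6 had H3K4me2 in Asxl1-/- cells. The hairpins of miR-29a and miR-29b-1, microRNAs known to repress collagen and other matrix genes, lay in 1 member at chr6:31050601-31064400. They are shown because their mature 3p arms share a seed, bases 2 to 8, given in capitals, and both genes lie in 1 member.
miR-29a-3p: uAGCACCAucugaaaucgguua
miR-29b-3p: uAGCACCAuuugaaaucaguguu
H3K4me2 covered 4.4 kb of this 13.8 kb member in Asxl1-/- cells and 8.6 kb in wild-type cells, and neither other mark was present in Asxl1-/- cells.

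In Asxl1-/- cells H3K4me2 was present at 2392 of the 3851 members, 62.1% (60.6 to 63.6), and missing from the other 1459, 37.9%. The background of this count was 27.4%, the share of all 35291 autosomal wild-type H3K4me2 islands without an H3K4me2 island in Asxl1-/- cells. That share is counted over H3K4me2 islands and takes in those with H3K4me3. Over the 15822 autosomal ASXL1 islands under the width limit with wild-type H3K4me2, the share without H3K4me2 in Asxl1-/- cells was 11.9%. The members are among these and supply 1459 of the 1879 islands without it. Among the 10498 ASXL1 islands with H3K4me3 and no H3K27me3, most of which lie at gene starts, 96.8% (96.5 to 97.2) had H3K4me2 in Asxl1-/- cells. H3K4me2 was thus missing more often at the members than at ASXL1 islands that carry H3K4me3, in a count that did not take width into account. Sites of the same kind without ASXL1 went the other way before width was taken into account. Counted over H3K4me2-only islands, H3K4me2 was present in Asxl1-/- cells at 58.6% at members and at 47.1% without ASXL1.

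The 3 marks combined in few ways. In Asxl1-/- cells 2156 members had H3K4me2 alone and 1387 had none of the marks. H3K4me2 with H3K4me3 was seen at 169 members and H3K4me2 with H3K27me3 at 67. H3K27me3 alone was seen at 70 members and H3K4me3 alone at 2. Of the members without H3K4me2, 37 had an Asxl1-/- H3K4me2 island within 1000 bp.

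**Figure D1:**
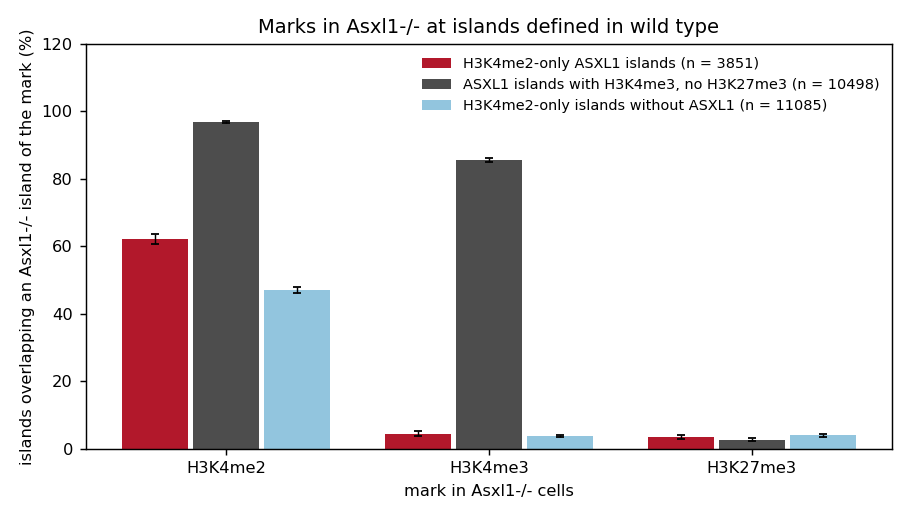
Percent of regions that overlap an island of each histone mark in Asxl1-/- cells (bars from 0, with exact 95% intervals for counting error) at the 3851 members and at the comparison sets, counted over ASXL1 islands or, for sites without ASXL1, over H3K4me2 islands. H3K4me2 was present at 62.1% of members and at 96.8% of ASXL1 islands with H3K4me3, while H3K4me3 and H3K27me3 were each at under 5% of members.

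Where H3K4me2 was present in both genotypes, it covered less of the ASXL1 island in Asxl1-/- cells at more members than it covered more. Of the 2392 members with H3K4me2 in Asxl1-/- cells, 739 had more covered bases in Asxl1-/- cells, 1282 had fewer and 371 had as many. Summed over all members, H3K4me2 covered 7.74 Mb in Asxl1-/- cells and 12.5 Mb in wild-type cells, a difference that the rule builds in, since it asked for H3K4me2 in wild type alone. Over all autosomes H3K4me2 covered 127 Mb in Asxl1-/- cells and 137 Mb in wild-type cells. Asxl1-/- H3K4me2 covered 51.3% of the wild-type H3K4me2 bases in H3K4me2-only islands at members, 43.5% in those without ASXL1 and 70.9% in all autosomal H3K4me2 islands. H3K4me2 islands that paired 1 to 1 across the genotypes had a median width of 2600 bp in Asxl1-/- cells and 3000 bp in wild-type cells at members. The median ratio of Asxl1-/- to wild-type width was 0.909 over these 2139 pairs (quartiles 0.667 and 1.18). The ratio was 1.00 over 4517 pairs of H3K4me2-only islands without ASXL1 and 0.964 over 21465 pairs of all autosomal H3K4me2 islands. Median wild-type widths were 2200 bp in the pairs without ASXL1 and 3600 bp in all pairs. The part of wild-type width in these ratios was not tested.

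The width of the island went with the presence of H3K4me2 in Asxl1-/- cells. By ASXL1 width, H3K4me2 was present at 48.3% (41.9 to 54.9) of members under 2000 bp, at 54.8% (51.9 to 57.6) from 2000 bp to under 4000 bp, at 62.9% (60.5 to 65.2) from 4000 bp to under 8000 bp and at 77.0% (73.8 to 80.0) of the wider ones. The width of a region also sets how readily an island meets it, and that part of the trend was not tested.

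To compare like with like, H3K4me2-only islands at members were set beside H3K4me2-only islands without ASXL1. H3K4me2 was present in Asxl1-/- cells at 58.6% (57.1 to 60.1) of 4382 such islands at members and at 47.1% (46.2 to 48.1) of 11085 without ASXL1, a difference of 11.5 points. The islands at members were also wider in wild type, with a median of 2600 bp against 1800 bp without ASXL1. Within classes of that width the difference was 3.66 points under 1000 bp, 3.36 from 1000 bp to under 2000 bp, 3.40 from 2000 bp to under 4000 bp and 5.16 at 4000 bp or more. The shares were 36.4, 41.1, 57.8 and 80.8% at members and 32.8, 37.7, 54.4 and 75.7% without ASXL1, in the same order, and their intervals overlapped in each class.

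**Figure D2:**
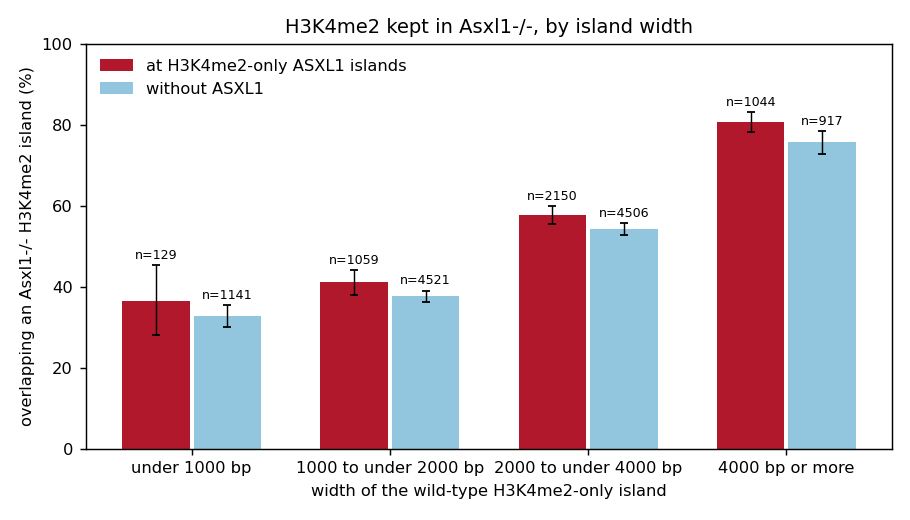
Percent of wild-type H3K4me2-only islands with H3K4me2 in Asxl1-/- cells, by wild-type island width, at members and at sites without ASXL1 (bars from 0, with exact 95% intervals for counting error). Both sets climb with width, from 36.4 to 80.8% at members and from 32.8 to 75.7% without ASXL1, and lie close together within each class.

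Whole chromosomes stood apart in these lists. H3K4me2 was present in Asxl1-/- cells at 34.2% (29.1 to 39.6) of the members on chromosome 3, 39.8% on chromosome 13 and 46.0% on chromosome 4, and at 81.1% (74.2 to 86.9) on chromosome 9 and 79.9% on chromosome 10. The length covered by all H3K4me2 islands, in Asxl1-/- over wild-type cells, was 0.532 on chromosome 3, 0.616 on chromosome 13, 1.17 on chromosome 9 and 1.35 on chromosome 10. Chromosome 4 was uneven along its length, with 34.6% of the members up to 120 Mb having H3K4me2 in Asxl1-/- cells and 77.3% of those beyond. Without chromosomes 3, 4, 10, 13 and 14, H3K4me2 was present at 67.6% (65.8 to 69.4) of members. On those other 14 autosomes it was present at 1958 of 3066 H3K4me2-only islands at members, 63.9%, and at 3986 of 7978 of those without ASXL1. The first of these shares was above the second on 19 of 19 autosomes, in counts that did not take width into account. The part of these whole-chromosome differences in single results was not tested, and genes on chromosomes 3, 4 and 13 are named as such below.

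**Figure D3:**
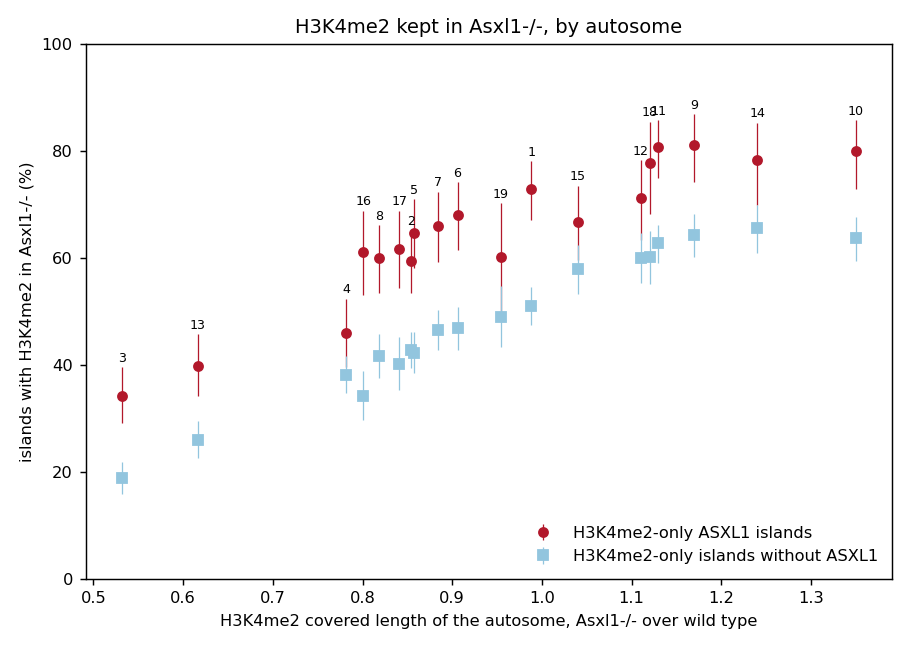
Percent of regions with H3K4me2 in Asxl1-/- cells (vertical axis) against the length covered by H3K4me2 islands in Asxl1-/- over wild-type cells (horizontal axis), with 1 point per autosome, numbered, for members (counted over ASXL1 islands) and for H3K4me2-only islands without ASXL1 (counted over H3K4me2 islands), with exact 95% intervals for counting error. Members on chromosomes 3, 4 and 13 have the lowest shares, 34.2, 46.0 and 39.8%, and the same chromosomes are low for sites without ASXL1 at 18.8, 38.1 and 25.9%.

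The members were distant from gene starts. Their centres lay a median of 41.8 kb (quartiles 18.5 and 91.8 kb) from the start of the nearest protein-coding gene, against 1096 bp for ASXL1 islands with H3K4me3. Only 100 members, 2.60%, lay within 2500 bp, against 66.6% of the ASXL1 islands with H3K4me3. A further 9.97% lay between 2500 and 10000 bp, 43.5% between 10000 and 50000 bp and 43.9% at 50000 bp or more. The rule left out islands with H3K4me3, a mark of gene starts, so this contrast is partly built in. The centre fell inside a protein-coding gene body for 51.5% of members, and 1.61% held a RefSeq start of a protein-coding gene. Of ASXL1 islands with none of the 3 marks in wild type, 45.7% had the centre in such a gene body and 0.677% held such a start. RefSeq starts were at hand for 79.6% of protein-coding genes, and for the others the nearer gene end was used. The gene table has no exons, so exons, introns and untranslated regions were not assigned.

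**Figure D4:**
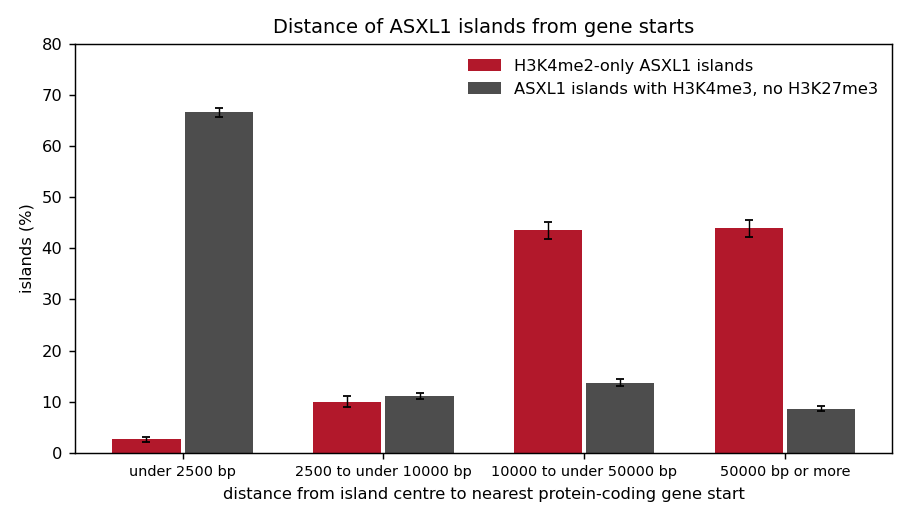
Share of islands by distance from the island centre to the start of the nearest protein-coding gene, for members and for ASXL1 islands with H3K4me3, with exact 95% intervals for counting error. Of the members 43.5% lie between 10000 and 50000 bp from a start and 43.9% farther, while 66.6% of the ASXL1 islands with H3K4me3 lie within 2500 bp. The rule left out islands with H3K4me3, a mark of gene starts, so the contrast is partly built in.

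H3K4me3 was present in Asxl1-/- cells at 171 members, 4.44% (3.81 to 5.14), against a background of 5.06% of the 18456 autosomal wild-type H3K4me2 islands without wild-type H3K4me3 and 3.89% of the 4811 ASXL1 islands without it. The second background includes the members, which supply 171 of its 187 islands with H3K4me3, so it is no separate comparison. Counted over H3K4me2-only islands, H3K4me3 was present at 3.49% (2.97 to 4.08) at members and at 3.70% (3.36 to 4.07) without ASXL1. The share of members with H3K4me3 was 7.94% when the wider 50% of each list was used and 7.39% when the lists of a mark were cut to equal length. Both settings also shortened the wild-type H3K4me3 list and chose the members anew. Islands with H3K4me3 in the full wild-type list could thus count as members, and how much this added was not tested. The size of the share rests on how the lists were cut and on which islands then count. Of the 171 members, 169 also had H3K4me2 in Asxl1-/- cells. The mark was present at 13 of the 100 members within 2500 bp of a gene start, at 9.90% between 2500 and 10000 bp, 4.83% between 10000 and 50000 bp and 2.31% at 50000 bp or more. At 31 of these members the Asxl1-/- island reached over a wild-type H3K4me3 island outside the member, and at 140 it did not.

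The 6 widest H3K4me3 islands at members, taken by rule, each overlapped a wild-type H3K4me3 island outside the member. At Pdgfrb, the receptor that marks pericytes and stromal cells, an Asxl1-/- H3K4me3 island of 22 kb covered 9.6 kb of a member of 12 kb inside the gene, where wild-type cells had 0 kb. H3K4me2 islands there measured 24.2 kb in Asxl1-/- cells and 23.6 kb in wild-type cells. At Tns1, which encodes the focal adhesion protein tensin 1, a member 94.6 kb from the start lay wholly under a 19.6 kb H3K4me3 island, and its H3K4me2 island measured 29 kb in Asxl1-/- cells against 9.0 kb in wild-type cells. The others were near Triobp, an actin-binding protein gene (19 kb), Lrrc32, which encodes the latent TGF-beta carrier GARP (16.6 kb), the septin cytoskeleton gene Septin11 (16.2 kb) and Tulp3, a gene of cilium traffic (16 kb). Near Lrrc32 the H3K4me2 island measured 25.2 kb in Asxl1-/- cells and 3.6 kb in wild-type cells. The 171 members had 164 nearest genes, and 7 of those genes had 2 such members each.

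H3K27me3 was present in Asxl1-/- cells at 137 members, 3.56% (2.99 to 4.19), against a background of 3.59% of the 30007 autosomal wild-type H3K4me2 islands without wild-type H3K27me3 and 3.01% of the 15088 ASXL1 islands without it. This share was near the first background, which is counted over H3K4me2 islands rather than ASXL1 islands. Over H3K4me2-only islands, H3K27me3 was present in Asxl1-/- cells at 2.69% (2.23 to 3.22) of 4382 at members. Without ASXL1 it was present at 443 of 11085, with an interval of 3.64 to 4.38%. H3K27me3 was thus rarer at members than at sites of the same kind without ASXL1, in a count that did not take width into account. H3K27me3 was present at 4.80% (3.76 to 6.02) of the members without H3K4me2 in Asxl1-/- cells and at 2.80% (2.18 to 3.54) of those with it. By chromosome, H3K27me3 was present at 20 of 265 members on chromosome 1, 17 of 242 on chromosome 8 and 16 of 288 on chromosome 2. As a share of members it was highest on chromosome 12, at 13 of 153, and chromosome 18, at 8 of 99. The counts on chromosomes 1 and 8 include the members near Ackr3, Cops8 and Zfp703 described below. At 38 members the Asxl1-/- island reached over a wild-type H3K27me3 island, and at 99 it did not.

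The 6 widest H3K27me3 islands at members likewise overlapped a wild-type H3K27me3 island outside the member. The island near Neurl1b, a gene for a ubiquitin ligase of the Notch pathway, measured 123 kb, and the member of 7.8 kb inside it had H3K4me2 of 1.6 kb in Asxl1-/- cells against 3.4 kb in wild-type cells. A member of 3.4 kb near Iqca had H3K4me2 of 0 kb in Asxl1-/- cells against 3.4 kb in wild-type cells, under an H3K27me3 island of 112 kb at chr1:90108801-90221200. The others were near Rph3al, a gene of secretory vesicle traffic (76 kb), Prmt8, an arginine methyltransferase gene (75.6 kb), Ccdc85c (72 kb) and the neuropeptide gene Qrfp (60.2 kb). H3K4me2 was missing in Asxl1-/- cells at the members near Rph3al and Prmt8, where wild-type cells had islands of 3.2 and 2.8 kb. It was present at those near Ccdc85c and Qrfp, at 13.4 and 3.6 kb in Asxl1-/- cells against 8.0 and 7.2 kb in wild-type cells. The 137 members had 118 nearest genes, and 9 genes with 2 or more held 28 of them.

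Zfp703 was the nearest gene of the most members with H3K27me3 in Asxl1-/- cells. It encodes a zinc finger transcriptional repressor, and was nearest to 9 members at lower coordinates, 14.8 to 254 kb from it, between chr8:26721601 and chr8:26965400. H3K4me2 was present at 0 of the 9 in Asxl1-/- cells, while wild-type H3K4me2 covered 24.6 kb of them. H3K27me3 was present at 6 of the 9 and covered 37.2 kb of them in Asxl1-/- cells, against 0 kb in wild-type cells. Over the whole span of 244 kb, H3K27me3 covered 126 kb in Asxl1-/- cells and 24 kb in wild-type cells, and H3K4me2 covered 0 kb in Asxl1-/- cells and 33.8 kb in wild-type cells. Zfp703 itself, at chr8:26977336-26981462, had H3K4me3 islands of 7.8 kb in Asxl1-/- cells and 9.0 kb in wild-type cells and H3K27me3 in neither. Chromosome 8 as a whole had less H3K27me3 cover in Asxl1-/- cells, 0.687 of wild type.

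A stretch of chromosome 1 from Ackr3 to beyond Cops8, named after its values were seen, had H3K4me2 left in Asxl1-/- cells. Ackr3 encodes a scavenger receptor of the chemokine CXCL12, and Cops8 a subunit of the COP9 signalosome. Of the 8 members between the genes, 8 had H3K27me3 in Asxl1-/- cells and 4 had H3K4me2, and of the 3 beyond Cops8, 1 had H3K27me3 and 3 had H3K4me2. Between chr1:90267601 and chr1:90694000, H3K27me3 covered 306 kb in Asxl1-/- cells and 25 kb in wild-type cells, and H3K4me2 covered 31.8 kb in Asxl1-/- cells and 51.8 kb in wild-type cells. The 112 kb island near Iqca also covered the whole of Ackr3, which kept H3K4me3 islands of 4.2 kb in Asxl1-/- cells against 6.0 kb in wild-type cells. H3K27me3 covered more of chromosome 1 in Asxl1-/- cells, 1.34 times wild type. Without the members nearest to Zfp703, Ackr3 and Cops8, H3K27me3 was present at 3.18% of members.

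**Figure D5:**
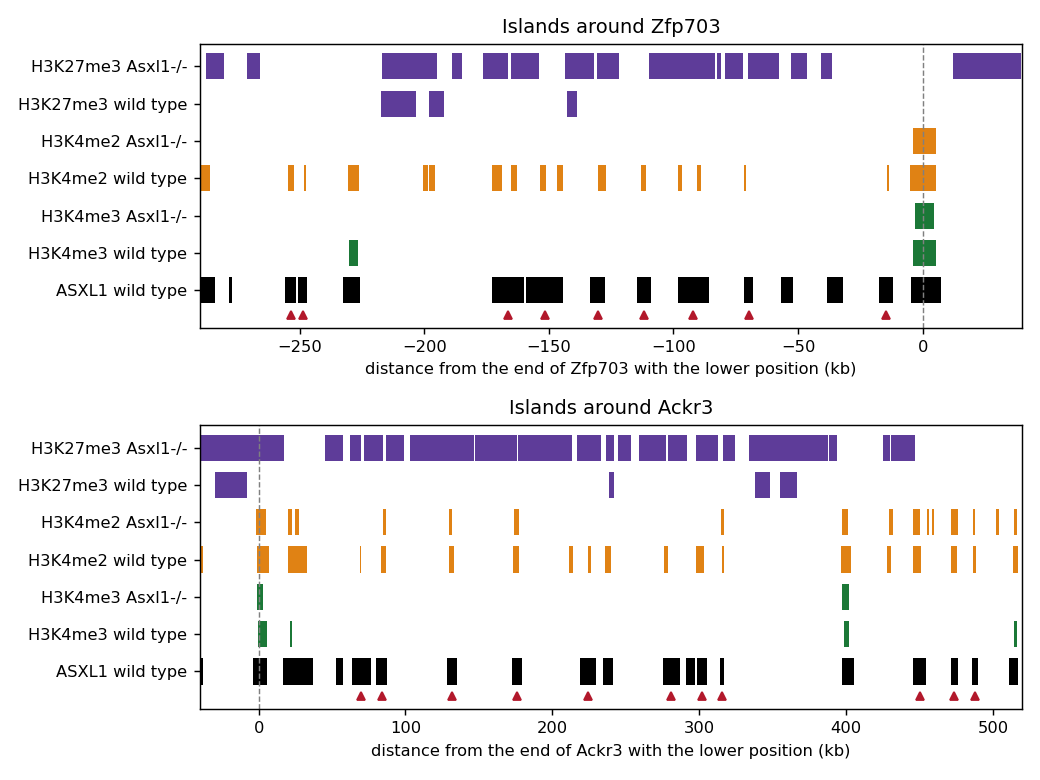
Islands of ASXL1 and of the 3 histone marks in Asxl1-/- cells and wild-type cells around Zfp703 and from Ackr3 to beyond Cops8, drawn to scale against distance in kb from the lower-coordinate end of Zfp703 or Ackr3 (dashed line), with triangles under the members. Around Zfp703 0 of 9 members had H3K4me2 and 6 had H3K27me3 in Asxl1-/- cells, while between Ackr3 and Cops8 4 of 8 had H3K4me2 and 8 had H3K27me3.

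The 8 widest members whose nearest gene is not a predicted one, from 19 kb up, had H3K4me2 in Asxl1-/- cells. At Eml1, a microtubule-associated protein gene, H3K4me2 covered 15.2 kb of a 19.6 kb member in Asxl1-/- cells and 14 kb in wild-type cells. Near Fn1, the fibronectin gene, H3K4me2 covered 8.6 kb of a 19.4 kb member in Asxl1-/- cells and 9.4 kb in wild-type cells. Near Tgfb2, which encodes a TGF-beta ligand, it covered 8.4 kb of a 19.4 kb member in Asxl1-/- cells and 7.8 kb in wild-type cells, and 3.4 kb of a 19 kb member in Asxl1-/- cells against 6.6 kb in wild-type cells. Others lay at Synj2, a phosphoinositide phosphatase gene, Septin9 and Tmx1. The 3 islands of the same kind just outside the width limit, each of 20000 bp, lay near Dut, Tpra1 and Tcim. H3K4me2 covered 13.8 kb of the Dut island in Asxl1-/- cells and 12.4 kb in wild-type cells, 16 kb of the Tpra1 island in Asxl1-/- cells and 18 kb in wild-type cells, and 0 kb of the Tcim island in Asxl1-/- cells and 5.0 kb in wild-type cells. Just inside it were the island at Eml1 and one of 19.6 kb at the predicted gene Gm13420, where H3K4me2 covered 9.4 kb in Asxl1-/- cells and 11.6 kb in wild-type cells.

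Among members without H3K4me2 in Asxl1-/- cells, those with the widest wild-type H3K4me2 islands lay at the edges of larger marked stretches. They were near Srebf2, a regulator of cholesterol synthesis, the phosphodiesterase gene Pde4b on chromosome 4, the limb transcription factor gene Tbx3, the matricellular YAP target Ccn1 on chromosome 3, Zc3h18, Hnrnpa2b1, Tspan9 and the chromatin remodeller gene Chd2. The wild-type H3K4me2 islands measured 13.6 to 25.8 kb, and all 8 also overlapped wild-type H3K4me3 outside the member. Asxl1-/- H3K4me2 still covered 4.6 to 11.6 kb of each, so it was missing from the part inside the member, which was 9.2 kb at Srebf2, 8.0 kb at Tspan9 and 0.6 to 2.2 kb at the others.

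The 3851 members had 2360 nearest genes, 11.4% of the 20665 autosomal protein-coding genes, and 1571 of them had 1 member each. ASXL1 itself was present at the start of 74.7% of these genes, against 50.9% of all, and wild-type H3K4me3 at 77.8%, against 60.2%. H3K4me3 was missing in Asxl1-/- cells from 73 of the 1837 nearest genes that had it in wild type, 3.97% (3.13 to 4.97), and the background over 12440 genes was 4.10%, so the share was near the background. H3K4me3 was missing from 6.35% (4.41 to 8.80) of nearest genes whose members were all without H3K4me2 in Asxl1-/- cells, from 3.44% (1.73 to 6.07) of those with some and from 2.91% (1.96 to 4.15) of those whose members all had it. Chromosomes 3, 4 and 13 are included in these counts.

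Some genes had many members around them, and they differed in how many had H3K4me2 in Asxl1-/- cells, beside 62.1% of all members. Foxp1, a forkhead transcription factor gene, had the most, with H3K4me2 in Asxl1-/- cells at 11 of 13, and H3K4me2 covered 38 kb of the 13 in Asxl1-/- cells and 45 kb in wild-type cells. Myc, the growth regulator gene, had H3K4me2 at 10 of 12 members, up to 707 kb away, with 34.8 kb covered in Asxl1-/- cells and 44.8 kb in wild-type cells. Ext1, which encodes a heparan sulfate polymerase, had it at 7 of 9. Pakap on chromosome 4 had it at 5 of 10, and Atxn1 on chromosome 13 at 3 of 9. H3K4me3 was present in both genotypes at the starts of all 6 genes with the most members, Zfp703 included. For example, its island at the Myc start measured 8.8 kb in Asxl1-/- cells and 10.0 kb in wild-type cells.

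Other contrasts between genes were chosen after their values were seen. Over all members H3K4me2 was present in Asxl1-/- cells at 62.1%. Genes not chosen here reached like extremes, such as Tns3 with H3K4me2 at 7 of 7 members, Sik1 at 6 of 6 and Asb7 at 0 of 4. H3K4me2 was present in Asxl1-/- cells at 6 of 6 members nearest Runx1, a transcription factor of blood and bone, and at 8 of 8 nearest Mical2 and Micalcl. It was present at 0 of 4 nearest Trps1, a repressor of chondrocyte maturation on chromosome 15, where it covered 0 kb of the members in Asxl1-/- cells and 16.2 kb in wild-type cells. At the Trps1 start H3K4me3 measured 4.6 kb in Asxl1-/- cells and 19.6 kb in wild-type cells. H3K4me2 was present at 1 of 8 members nearest Zeb2, a repressor of epithelial genes on chromosome 2. These members lay 337959 bp or farther from its start, and whether they act on Zeb2 was not tested. H3K4me3 at the Zeb2 start measured 20.0 kb in Asxl1-/- cells and 6.8 kb in wild-type cells.

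Members also ran close together. With gaps of at most 12500 bp, 2814 members stood alone, while 372 runs held 2 members, 75 held 3, 14 held 4 and 2 held 6. A run of 6 near Thbs2, the thrombospondin 2 gene, at chr17:14587801-14679000, had H3K4me2 at 3 in Asxl1-/- cells. The other, at Mical2 and Micalcl, at chr7:112265601-112339000, had it at 6.

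Lists of stromal and other genes differed in how many of their genes were nearest to a member. Of the niche factor genes, which make signals for blood stem cells, 11 of 15 were nearest genes, as were 21 of 34 TGF-beta and BMP genes, 13 of 22 stromal and pericyte genes, 17 of 29 matrix genes and 14 of 27 genes of FGF, PDGF and insulin-like growth factor signalling, against 11.4% of all genes. The nearest genes had a median length of 46.4 kb, against 17.5 kb for all autosomal protein-coding genes, and the part of gene length in these counts was not tested. The share was lower than in those lists, though above 11.4%, for chromatin regulators (4 of 27, 14.8%), chondrocyte genes (3 of 18, 16.7%) and osteoblast genes (5 of 19, 26.3%). Adipocyte genes were at 9 of 20, YAP/TEAD and contractile genes at 12 of 26, Wnt genes at 11 of 29 and AP-1 and immediate early genes at 7 of 20. Of lists for other cell types, 2 of 19 haematopoietic, 6 of 14 endothelial, 3 of 12 epithelial and 2 of 10 skeletal muscle genes were nearest genes.

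In the niche list H3K4me2 was present in Asxl1-/- cells at 17 of 23 members, against 62.1% of all members. Cxcl12, the chemokine that retains blood stem cells in marrow, had 4 members 133 to 266 kb from its start. H3K4me2 covered 5.0 and 6.0 kb of the wider pair in Asxl1-/- cells, against 5.4 and 7.0 kb in wild-type cells, and was missing in Asxl1-/- cells from the narrower pair. Csf1, the macrophage growth factor gene on chromosome 3, had H3K4me2 at 3 of 3 members, and 1 of them had an H3K4me3 island of 3.8 kb in Asxl1-/- cells against 0 kb in wild-type cells. All members nearest Il7 on chromosome 3 and Vegfa were without H3K4me2 in Asxl1-/- cells.

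In the matrix list H3K4me2 was present at 31 of 42 members. Near Fn1 it was present at 6 of 7, covering 22.4 kb in Asxl1-/- cells and 32.8 kb in wild-type cells. Near Thbs2 it was present at 4 of 7, covering 23.8 kb in Asxl1-/- cells and 34.6 kb in wild-type cells, although the widest of these members, 17.4 kb, had 7.0 kb covered in Asxl1-/- cells and 4.8 kb in wild-type cells. Near Adamts1, a matrix protease gene, a 16.8 kb member had 1.8 kb covered in Asxl1-/- cells and 3.0 kb in wild-type cells. All members nearest Adamts5 and Col8a1 were without it. In the YAP/TEAD and contractile list it was present at 13 of 19, among them a member at Mrtfa, a coactivator of serum response factor, with an H3K4me3 island of 2.8 kb in Asxl1-/- cells against 0 kb in wild-type cells.

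In the TGF-beta and BMP list H3K4me2 was present at 34 of 60 members. Near Smad3, a transcription factor that carries the TGF-beta signal, it was present at 4 of 5 and covered 17.4 kb of an 18.4 kb member in Asxl1-/- cells and 14 kb in wild-type cells. That member also had an H3K4me3 island of 1.6 kb in Asxl1-/- cells against 0 kb in wild-type cells. For Inhba, the activin A gene on chromosome 13, H3K4me2 was present at 2 of 8 members, which lay 150 to 749 kb from its start. All members nearest Bmp6 and Smad5 on chromosome 13, Skil on chromosome 3, and Grem1, Id2 and Smad1 were without it. In the growth factor list it was present at 12 of 26, and all members nearest Dusp6, Hgf, Met, Spry2, Vegfa and, on chromosome 3, Pdgfc were without it. At Met, the receptor of hepatocyte growth factor, H3K4me2 covered 0 kb of an 8.6 kb member in Asxl1-/- cells and 6.0 kb in wild-type cells.

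Lineage genes were mixed. In the adipocyte list H3K4me2 was present at 7 of 14 members, among them one near Pparg, the master regulator of fat cells, with 3.6 kb covered in Asxl1-/- cells and 7.0 kb in wild-type cells. It was missing from the member near Plin2, a lipid droplet gene on chromosome 4, with 0 kb covered in Asxl1-/- cells and 6.8 kb in wild-type cells. In the osteoblast list it was present at 4 of 8, with the member at Sparc, the osteonectin gene, covered over 5.4 kb in Asxl1-/- cells and 3.4 kb in wild-type cells. In the chondrocyte list it was present at 5 of 12, and near Sox9, the master regulator of cartilage, 4.6 kb of a 13.2 kb member was covered in Asxl1-/- cells and 6.4 kb in wild-type cells. In the stromal list it was present at 15 of 22, and 4 of the 22 had H3K4me3 in Asxl1-/- cells. The Wnt list had it at 11 of 17 and the AP-1 list at 15 of 23. The 4 lists for other cell types had it at 7 of 7, 6 of 9, 4 of 5 and 2 of 2, in the order given above. Single genes supplied much of some lists. Of the 7 haematopoietic members 6 were nearest to Runx1, 12 of the 23 AP-1 members were nearest to Myc, and the 12 chondrocyte members had 3 nearest genes.

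The few promoters inside members had a base composition unlike most promoters. In all, 62 windows of 59 protein-coding genes lay wholly in members. Their median GC content was 52.0%, against 57.0% over 20085 windows of all autosomal protein-coding genes and 62.3% over windows in ASXL1 islands with H3K4me3. The GC box GGGCGG, the SP1 motif, was found on either strand in 9.68% of member windows and 47.0% of all. The ETS motif CCGGAAG was found in 0 of the 62 member windows and in 11.9% of all. An approximate upper limit for the member windows, taken as 3 windows, is 4.84%. No intervals were computed for the motif shares. The AP-1 motif TGANTCA was found in 21.0% of member windows and 7.06% of all, TEAD's GGAATG in 21.0 and 13.4%, RUNX's TGTGGT in 25.8 and 14.8% and the E-box CACGTG in 4.84 and 7.89%. Windows with neither ASXL1, H3K4me2 nor H3K4me3 in wild type, whose median GC content was 47.7%, held the GC box in 14.6%, the ETS motif in 2.57%, which is below the limit given for member windows, and the AP-1 motif in 10.6%, with TEAD in 16.3% and RUNX in 20.2%. Windows inside H3K4me2 without ASXL1 or H3K4me3, with a median GC content of 58.0%, held the GC box in 43.6%, the ETS motif in 3.52%, the AP-1 motif in 10.7%, TEAD in 14.6% and RUNX in 14.8%. The E-box was found in 4.40% of the unmarked windows and 4.53% of those with H3K4me2. The 62 windows lay in 60 of the 3851 members, and the sequence of the other members was not analysed here. The windows of Apol9b overlap, so the same AP-1 and TEAD sites are counted in each.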

How the data were processed

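Reads were aligned with BWA to mm10 and islands were called with SICER 1.1, per the submitters' processing notes; calling settings are not stated there. Each deposited list gives chromosome, start, end, a running number and a library name per island, and holds no count, score or signal. All island edges lie on a grid of 200 bp. Of 8 samples 7 had a list, and the input was not analysed here. Islands were intersected with Python 3.11.15, numpy 2.4.6 and pandas 2.3.3, with 1 bp as the least overlap. Intervals given with shares are exact Clopper-Pearson 95% intervals from scipy 1.17.1. The interval code was tested on simulated lists. H3K4me2 is called present at a member when an Asxl1-/- island overlaps it. A gene start has a mark when an island lies within 1000 bp of it. Gene positions and promoters are RefSeq, GRCm38.p6, and 20665 autosomal protein-coding genes were used. The members, the 16 lists of 341 genes and the rule for named genes were chosen with earlier results of these data known. The rule takes the nearest protein-coding genes of the widest members, of the widest H3K4me2 islands without Asxl1-/- counterpart, of the widest H3K4me3 and H3K27me3 islands, of up to 3 members per list, and the 6 genes with most members. Alternatives changed the overlap, width limit, chromosomes, list length and gene set. A gene that the rule takes is not reported here.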

Additional observations from a re-analysis of the deposited data

How the results depend on the processing

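Of 49 alternative values, 28 stayed within the bounds used here and 21 moved beyond them. A change of direction was not checked for. The bounds were 1.5 times for the number of members, which was 2705 without chromosomes 3, 4, 10, 13 and 14, and the counting interval for shares. The width ratio and the difference between sites have no such error, and any other value of theirs counts as moved. There were 2033 members when ASXL1 islands were under 5000 bp wide and 2418 with the wider 50% of each list. H3K4me2 was present in Asxl1-/- cells at 54.9% of the narrow members, at 67.6% without chromosomes 3, 4, 10, 13 and 14 and at 65.1% with lists of equal length, and missing from 45.1, 32.4 and 34.9%. H3K4me3 was present at 3.68% of members with no wild-type H3K4me3 or H3K27me3 within 2000 bp, at 7.94% with the wider 50% of each list and at 7.39% with lists of equal length. Cutting the lists also shortened wild-type lists and chose the members anew, so these shares are not over the same islands. H3K27me3 was present at 2.56% of the narrow members and at 4.55% without the 5 chromosomes. The share of members 2500 bp or farther from a gene start, 97.4%, became 89.4% with all genes of the annotation, 94.9% from the nearer edge of the island and, in an alternative added after seeing the data, 94.7% with both ends of every protein-coding gene. The width ratio of 0.909 became 0.926 over bases of the ASXL1 island covered. The difference of 11.5 points between sites with and without ASXL1 became 3.66, 3.36, 3.40 and 5.16 points in classes of rising width. The other added alternative, without the members nearest to Zfp703, Ackr3 and Cops8, left H3K27me3 at 3.18% of members. No paired analysis was possible because each mark and genotype is 1 library and no result comes from a test. A stricter limit of the peak caller could not be applied, since the lists hold no statistic. Depth is unknown, so an island missing from Asxl1-/- cells cannot be told apart from one below the caller's limit.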

Other observations

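On the X chromosome, which the choice of members leaves out, 33 ASXL1 islands met the same conditions on width and wild-type marks. H3K4me2 was present in Asxl1-/- cells at 24 of them, 72.7% (54.5 to 86.7), H3K4me3 at 2, 6.06% (0.743 to 20.2), and H3K27me3 at 9, 27.3% (13.3 to 45.5). The last share was near that of the whole chromosome: H3K27me3 was present in Asxl1-/- cells at 205 of all 672 X-linked wild-type H3K4me2 islands without wild-type H3K27me3, 30.5%. H3K27me3 islands covered 15.6 Mb of the X chromosome in Asxl1-/- cells and 1.34 Mb in wild-type cells. On the autosomes H3K27me3 was present at 3.56% of members (2.99 to 4.19). Intervals are exact Clopper-Pearson 95% intervals and cover counting error alone, and each mark comes from 1 library per genotype.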
